A study of Bos taurus with 8 samples.

Results

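The proteasome is the protease that degrades most ubiquitin-tagged proteins of the cell. Its 20S core is a barrel of outer alpha rings and inner beta rings, with the proteolytic sites on 3 of the beta subunits. The 19S particle caps the barrel, binds and deubiquitinates substrates through its non-ATPase subunits, and unfolds them with a ring of ATPases. Under interferon the catalytic beta subunits are exchanged for inducible ones in newly built particles, and in the placenta, as in other tissues, the enzyme also supplies peptides for antigen presentation.

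The genes described are the constitutive proteasome subunits, with their activators and dedicated chaperones. They were chosen by name, as every gene on the array called PSMA, PSMB, PSMC, PSMD, PSME or PSMG and a number, with the inducible subunits PSMB8, PSMB9 and PSMB10 left out. The rule found 43 genes on 91 of the 51282 probes of the array, and all 43 were among the 13400 genes with a tested probe. By subcomplex they were 7 PSMA genes of the alpha ring, 8 PSMB genes, 6 PSMC ATPases, 14 PSMD genes, 4 PSME activators and 4 PSMG chaperones. PSMB11, the catalytic subunit of the thymus, is not part of the constitutive enzyme, although the name rule takes it in.

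The 8 one-colour Agilent arrays carried Cy3-labelled RNA of 4 samples labelled pregnant and 4 labelled non-pregnant. All samples are labelled as female and as cotyledon of the fetus, where the ruminant placenta meets the uterus, and the descriptions place those labelled pregnant after pregnancy and those labelled non-pregnant before it. The organism label is cattle, whereas the protocol speaks of gravid uteri of buffalo from a slaughterhouse, so RNA and probes may be of different species. No age, stage, pooling or animal number is given, so p-values describe the spread among these arrays alone, which may in part be technical.

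The labels were checked against marker genes. These went against the tissue label on the arrays labelled pregnant and against the pregnancy label on those labelled non-pregnant. Whether the arrays labelled pregnant came from pregnant animals cannot be judged from these markers. Of 10 tested trophoblast markers 9 were lower and 1 (ELF5) higher on the arrays labelled pregnant, where PLAC1 and CDX2 were above background on no array. Their summed signal, relative to each array's 75th percentile, was 1.04 to 5.17 on the arrays labelled pregnant and 545 to 850 on those labelled non-pregnant. All 7 endometrial markers were higher, at 96.8 to 218 against 0.948 to 2.05, and ESR1 and HOXD10 were above background on no array labelled non-pregnant. Of the leukocyte markers 5 of 6 were higher (32.9 to 77.6 against 5.67 to 14.3 for all 6, CD3G on no array labelled non-pregnant). The other, PTPRC, was equal at means of 2.84 and 2.83 (difference 0.01, adjusted p = 0.98). Interferon response genes (7 of 7 higher, 38.4 to 64.1 against 1.41 to 3.17) and the 5 leukocyte markers moved with the endometrial ones. Erythroid genes (4 of 4 lower, 0.508 to 2.69 against 335 to 600, HBB and HBM on no array labelled pregnant) and proliferation genes (4 of 4 lower, 0.138 to 0.350 against 17.3 to 22.7) moved with the trophoblast ones. The part of these differences in tissue makeup in the proteasome values was not tested, and in bulk RNA fewer cells of a type and less RNA per cell cannot be told apart. Groups are therefore called by their labels. On the single slide, the second field of the array barcode had 1 value per group and may stand for slide position. That field and group cannot be told apart.

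Values are log2 spot signals minus the array's 75th percentile, for the brightest tested probe of a gene, and differences are labelled pregnant minus labelled non-pregnant. A gene was called at a limma adjusted p below 0.05. Of the 43 genes, 30 were lower on the arrays labelled pregnant, 2 (PSME1 and PSMG4) were higher and 11 were not called. Over all tested genes 32.8% were called lower, 29.9% higher and 62.7% in either direction. A difference of at least 2-fold was reached by 21 genes, all of them lower, where 24.2% of all genes passed that limit downward and 24% upward. The values of both groups did not overlap for 31 genes with lower and 2 with higher values on the arrays labelled pregnant (31.8% and 28.5% of all genes). The median difference was -0.90 over the 43 genes and -0.02 over all genes. Under all 18 alternative settings 21 genes stayed called lower, and of the other 9 called lower, 8 lost the call with quantile normalization alone (PSMA1, PSMA2, PSMA6, PSMC2, PSMD2, PSMD7, PSMD8 and PSMG2) and PSMD3 lost it with all probes of a gene averaged. Quantile normalization left 22 genes called lower at a median of -0.44.

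**Figure D1:**
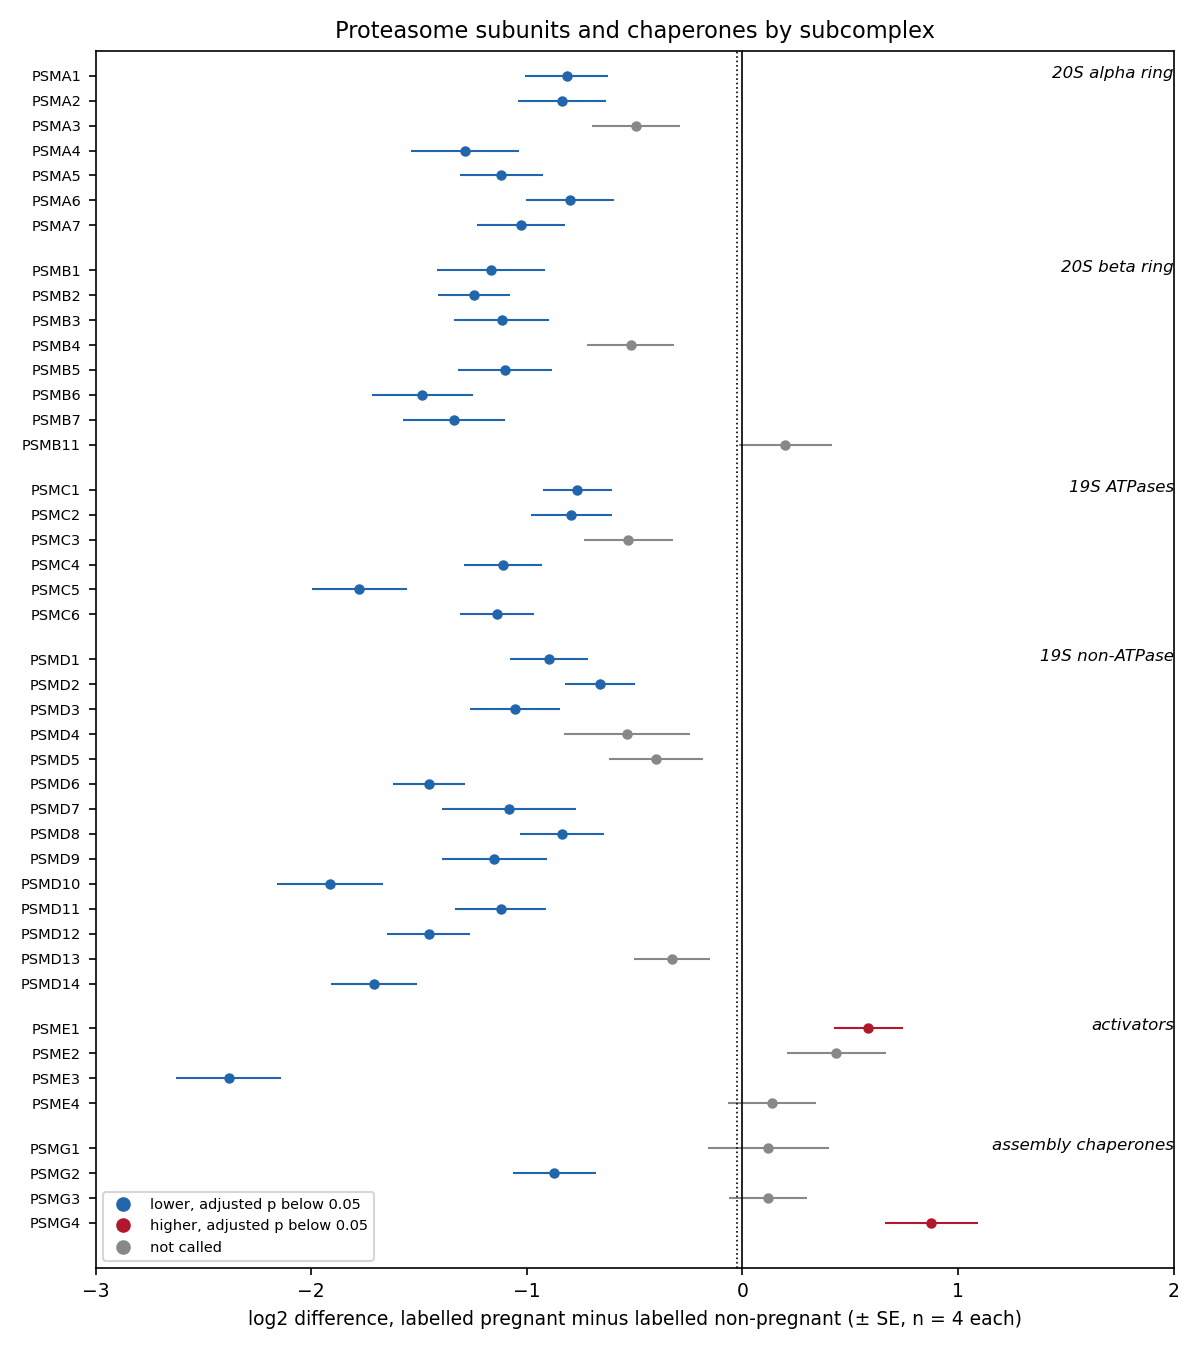
Log2 difference of each of the 43 genes, labelled pregnant minus labelled non-pregnant, with its SE (n = 4 arrays each), by subcomplex; the dotted line is the median of all tested genes, -0.02. Alpha, beta, ATPase and non-ATPase genes lie left of 0, down to -1.91, except PSMB11 at 0.20, and the activators run from -2.38 to 0.58.

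Most genes of the barrel and of the cap were lower. In the alpha ring 6 of 7 genes were called lower (median -0.84, range -1.29 to -0.49), in the beta ring 6 of 8 (median -1.14, range -1.48 to 0.20), among the ATPases 5 of 6 (median -0.95, range -1.78 to -0.53) and among the PSMD genes 11 of 14 (median -1.07, range -1.91 to -0.33). No gene of these 4 subcomplexes was called higher. Over all tested genes 32.8% were called lower and 29.9% higher. The activators (median 0.29) and the PSMG chaperones (median 0.12) each had 1 gene called lower, 1 called higher and 2 not called. These counts are near the shares over all genes. Whether subcomplexes differed from each other was not tested.

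The lower level was shared by the arrays of a group. On the arrays labelled pregnant 36 to 38 of the 43 genes lay below their own mean over the 8 arrays, against 3 to 15 on those labelled non-pregnant. For the 31 genes that were lower without overlap, these counts largely restate the group difference. The share over all tested genes was not computed. The median level of the 43 genes was 3.38, 3.54, 3.43 and 3.49 on the arrays labelled pregnant, against 4.36, 4.46, 4.57 and 4.15 on those labelled non-pregnant. Labelled non-pregnant array 4 was the lowest of its group and the one with 15 genes below their mean. Without it 34 genes were called lower, with PSMA3, PSMB4, PSMC3 and PSMD13 added, and leaving out each of the other arrays gave 30 or 31.

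**Figure D2:**
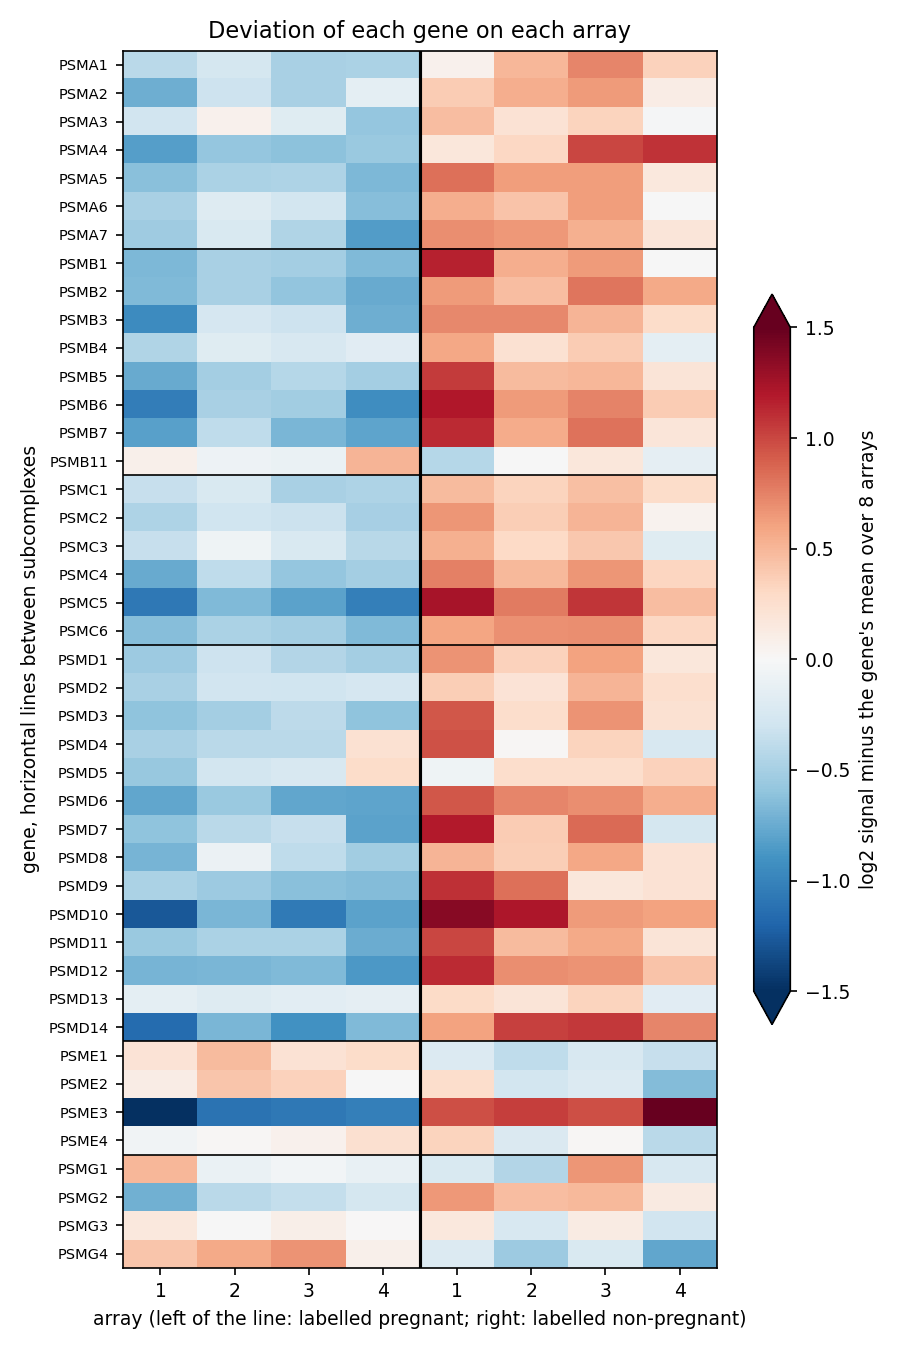
Log2 signal of each gene on each array minus the gene's mean over the 8 arrays, with the arrays labelled pregnant left of the vertical line and those labelled non-pregnant right of it. Blue fields (below the mean) fill the left side in 36 to 38 of 43 rows, PSME1 and PSMG4 run the other way, and labelled non-pregnant array 4 is the palest of its group.

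The alpha ring, which docks the regulators and gates the barrel, was lower by similar amounts in most of its genes. PSMA4 (chr21:30990941-30991000) read 1.85, 2.09, 2.06 and 2.11 on the arrays labelled pregnant, against 2.84, 2.98, 3.67 and 3.76 on those labelled non-pregnant. Every array labelled pregnant was below every array labelled non-pregnant, with labelled non-pregnant arrays 3 and 4 highest, and the difference was -1.29 (SE 0.25, adjusted p = 0.0019). PSMA5 (chr3:36716988-36717047) read 4.16, 4.32, 4.33 and 4.11 on the arrays labelled pregnant, against 5.61, 5.41, 5.41 and 4.94 on those labelled non-pregnant. The groups were again apart, at -1.12 (SE 0.19, adjusted p = 0.00105), a 2.17-fold lower signal. PSMA7 (chr13:55781661-55781720) read 4.67, 4.97, 4.75 and 4.37 on the arrays labelled pregnant, against 5.90, 5.85, 5.73 and 5.38 on those labelled non-pregnant. Here array 4 was the lowest of each label without closing the gap of -1.03 (SE 0.20, adjusted p = 0.00225).

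The smallest differences of the alpha ring were those of PSMA3, PSMA6 and PSMA1. PSMA3 (chr10:72568892-72569343) read 1.60, 1.95, 1.70 and 1.30 on the arrays labelled pregnant, against 2.34, 2.10, 2.22 and 1.86 on those labelled non-pregnant. Its groups overlapped, since array 2 labelled pregnant exceeded array 4 labelled non-pregnant, and -0.49 (SE 0.20, adjusted p = 0.0621) was not called. PSMA6 (chr21:46373320-46373379) read 4.60, 4.89, 4.81 and 4.44 on the arrays labelled pregnant, against 5.64, 5.51, 5.72 and 5.08 on those labelled non-pregnant. The groups did not overlap, at -0.80 (SE 0.21, adjusted p = 0.00883), although PSMA6 was -0.21 and not called with quantile normalization (adjusted p = 0.295). PSMA1 (chr15:37010093-37010152) read 3.62, 3.76, 3.54 and 3.54 on the arrays labelled pregnant, against 4.08, 4.52, 4.75 and 4.37 on those labelled non-pregnant. It was lower on all 4 arrays labelled pregnant, at -0.81 (SE 0.19, adjusted p = 0.00571), and PSMA2 was lower by a like amount, -0.84 (SE 0.20, adjusted p = 0.00654). The other tested probe of PSMA2 read -0.25, with overlapping groups, and was not called (adjusted p = 0.273).

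The beta ring carries the proteolytic sites on PSMB5 (chymotrypsin-like), PSMB6 (caspase-like) and PSMB7 (trypsin-like). All 3 catalytic genes were called lower, where 32.8% of all tested genes were. PSMB6 (chr19:26938979-26939038) read 2.90, 3.45, 3.42 and 3.01 on the arrays labelled pregnant, against 5.14, 4.58, 4.68 and 4.32 on those labelled non-pregnant. All arrays labelled pregnant were below the lowest labelled non-pregnant one, and the difference of -1.48 (SE 0.24, adjusted p = 0.000609) was the largest of the ring. PSMB7 (chr11:98624298-98624357) read 5.29, 5.72, 5.43 and 5.32 on the arrays labelled pregnant, against 7.23, 6.67, 6.92 and 6.29 on those labelled non-pregnant. Array 1 labelled non-pregnant was highest and the groups stood apart at -1.34 (SE 0.24, adjusted p = 0.00112). PSMB5 (chr10:22117089-22117148) read 3.38, 3.63, 3.70 and 3.62 on the arrays labelled pregnant, against 5.18, 4.61, 4.63 and 4.32 on those labelled non-pregnant. The arrays labelled pregnant were close together, and the difference was -1.10 (SE 0.22, adjusted p = 0.00215).

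The inducible subunits that take the places of these 3, made in immune cells and in cells exposed to interferon, differed in the opposite direction. PSMB9, the counterpart of PSMB6, read 4.14, 4.94, 4.44 and 3.47 on the arrays labelled pregnant, against 0.59, 0.16, -0.33 and 0.21 on those labelled non-pregnant. Each array labelled pregnant exceeded each one labelled non-pregnant, by 4.09 (SE 0.33, adjusted p = 1.15e-05) on average. PSMB10, the counterpart of PSMB7, read 0.82, 1.34, 1.20 and 0.68 on the arrays labelled pregnant, against -3.41, -3.15, -3.16 and -3.38 on those labelled non-pregnant. The groups were far apart and each was narrow, at 4.29 (SE 0.20, adjusted p = 7.29e-07). PSMB8, the counterpart of PSMB5, read 1.67, 2.40, 2.09 and 1.29 on the arrays labelled pregnant, against -1.64, -1.85, -1.98 and -1.85 on those labelled non-pregnant. It was higher on all 4 arrays labelled pregnant, by 3.69 (SE 0.26, adjusted p = 4.80e-06).

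Because both genes of a pair are read on the same array, the log ratio of inducible to constitutive subunit does not depend on a scaling constant. The PSMB9 to PSMB6 log2 ratio was 1.24, 1.49, 1.02 and 0.46 on the arrays labelled pregnant, against -4.55, -4.42, -5.01 and -4.11 on those labelled non-pregnant. The PSMB10 to PSMB7 ratio was -4.47, -4.38, -4.22 and -4.64, against -10.64, -9.82, -10.08 and -9.67. The PSMB8 to PSMB5 ratio was -1.71, -1.23, -1.61 and -2.33, against -6.82, -6.46, -6.61 and -6.17. No ratio overlapped between the groups, and the changes were 5.57, 5.62 and 4.79 log2 units (47.6-fold, 49.3-fold and 27.7-fold). Each exact two-sided permutation test over the 8 arrays gave p = 0.0286, the smallest that 4 against 4 arrays allow. It stayed 0.0286 after adjustment over the 3 pairs. Since both genes of each pair were already apart in opposite directions, this p was fixed beforehand and adds no evidence. Over all tested genes the groups did not overlap for 31.8% (lower) and 28.5% (higher). These ratios compare arrays with each other; the level of one probe against another within an array has no meaning, since probes differ in brightness. Most of each change came from the inducible gene, with the constitutive ones differing by -1.48, -1.34 and -1.10. The 7 interferon response genes, all higher, moved with these ratios, and their part in them was not tested.

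**Figure D3:**
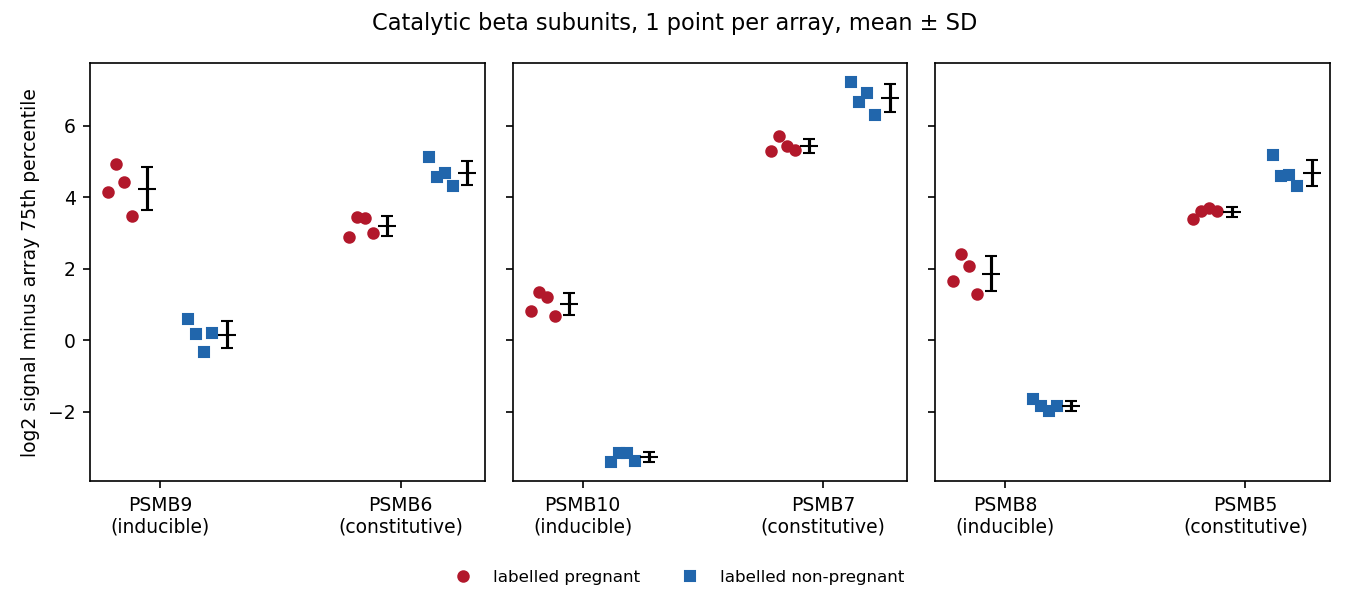
Log2 signal minus the array's 75th percentile for the 3 inducible subunits and the 3 constitutive ones whose places they take, 1 point per array, with the mean ± SD (n = 4) beside each group. Inducible subunits are higher on the arrays labelled pregnant by 3.69 to 4.29 and constitutive ones differ by -1.48 to -1.10, with no overlap.

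The probes behind these pairs are 60 bases long, and for PSMB7, PSMB8 and PSMB9 a second probe is printed, chosen because its letters hold an open reading frame. They are given 5′ to 3′ in lower case, with no part marked, on build Btau_3.1.
PSMB6: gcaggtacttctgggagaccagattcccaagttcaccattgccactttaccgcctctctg
PSMB9: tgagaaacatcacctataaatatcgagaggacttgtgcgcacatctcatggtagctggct
PSMB7: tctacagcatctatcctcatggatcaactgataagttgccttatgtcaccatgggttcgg
PSMB10: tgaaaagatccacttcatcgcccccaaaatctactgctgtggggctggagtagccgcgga
PSMB8: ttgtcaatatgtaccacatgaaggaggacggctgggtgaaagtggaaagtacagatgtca
The PSMB6 probe (chr19:26938979-26939038, minus strand) and the PSMB9 probe (chr23:7398455-7398514, plus strand) align as unbroken stretches. The PSMB7 probe (chr11:98853337-98872266), the PSMB10 probe (chr18:34441558-34441728) and the PSMB8 probe (chr23:7379932-7380229), all on the minus strand, span 18930, 171 and 298 bases of genome, so their alignment is interrupted. The differences read by the second probes were 4.63 for PSMB9, -1.03 for PSMB7 and 3.52 for PSMB8, the directions of the brightest probes. PSMB8 and PSMB9 lie close together on chromosome 23. Exon or untranslated region positions of the probes were not used here.

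Among the non-catalytic beta subunits PSMB2 (chr3:117388862-117388921) read 1.91, 2.09, 1.98 and 1.82 on the arrays labelled pregnant, against 3.21, 3.04, 3.38 and 3.15 on those labelled non-pregnant. Both groups were narrow and far apart, at -1.24 (SE 0.17, adjusted p = 0.000221). PSMB1 and PSMB3 were lower by similar amounts, -1.17 (SE 0.25, adjusted p = 0.00336) and -1.12 (SE 0.22, adjusted p = 0.00219). PSMB4 (chr3:20881953-20882012) read 5.09, 5.35, 5.30 and 5.38 on the arrays labelled pregnant, against 6.12, 5.77, 5.92 and 5.40 on those labelled non-pregnant. Its values did not overlap, but array 4 labelled non-pregnant came within reach of the other group and -0.52 (SE 0.20, adjusted p = 0.0512) missed the threshold. PSMB11 (chr10:22106157-22106216) read -4.67, -4.82, -4.84 and -4.23 on the arrays labelled pregnant, against -5.17, -4.74, -4.57 and -4.87 on those labelled non-pregnant. Its groups overlapped at a dim level, with a difference of 0.20 (SE 0.22, adjusted p = 0.449), and it was the only one of the 8 PSMB genes with a positive value, which turned negative with median scaling, quantile normalization and no scaling.

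The ATPases form the ring that pulls substrates into the barrel, and PSMC5 had the largest difference among them. PSMC5 (chr19:49624154-49624213) read 3.03, 3.45, 3.31 and 3.08 on the arrays labelled pregnant, against 5.34, 4.89, 5.18 and 4.57 on those labelled non-pregnant. The gap between the groups was wider than either group, at -1.78 (SE 0.22, adjusted p = 0.000138), a 3.43-fold lower signal. PSMC6 (chr10:11289911-11289970) read 3.73, 3.89, 3.86 and 3.70 on the arrays labelled pregnant, against 4.96, 5.04, 5.06 and 4.67 on those labelled non-pregnant. Its arrays labelled pregnant lay within a narrow band below all the others, at -1.14 (SE 0.17, adjusted p = 0.000434). PSMC4 (chr18:49137142-49137201) read 3.46, 3.84, 3.63 and 3.71 on the arrays labelled pregnant, against 4.97, 4.70, 4.88 and 4.54 on those labelled non-pregnant. It was lower on every array labelled pregnant, at -1.11 (SE 0.18, adjusted p = 0.000697).

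PSMC1, PSMC2 and PSMC3 differed less. PSMC1 (chr10:104914438-104914497) read 1.99, 2.11, 1.85 and 1.87 on the arrays labelled pregnant, against 2.81, 2.67, 2.79 and 2.61 on those labelled non-pregnant. The groups did not overlap, and the difference was -0.77 (SE 0.16, adjusted p = 0.00307). PSMC2, for which the files give no position, read 3.64, 3.80, 3.78 and 3.60 on the arrays labelled pregnant, against 4.76, 4.47, 4.61 and 4.15 on those labelled non-pregnant. It was lower on all arrays labelled pregnant, at -0.79 (SE 0.19, adjusted p = 0.00563). PSMC3 (chr15:77601155-77601214) read 2.99, 3.27, 3.103 and 2.92 on the arrays labelled pregnant, against 3.87, 3.64, 3.74 and 3.15 on those labelled non-pregnant. Array 4 labelled non-pregnant lay inside the other group, and -0.53 (SE 0.21, adjusted p = 0.0513) was not called.

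The PSMD genes comprise the lid, which removes ubiquitin, the non-ATPase part of the base, and chaperones that leave the finished particle. Of the 8 lid genes 7 were called lower (median -1.10) and PSMD13 was not, where 32.8% of all tested genes were called lower. PSMD14, the deubiquitinase of the lid (chr2:36107555-36107614), read 2.36, 2.83, 2.61 and 2.85 on the arrays labelled pregnant, against 4.12, 4.54, 4.57 and 4.26 on those labelled non-pregnant. All arrays labelled pregnant were below the rest, at -1.71 (SE 0.20, adjusted p = 9.41e-05), a 3.27-fold lower signal. PSMD12, a scaffold subunit of the lid (chr19:51074350-51074409), read 1.02, 1.03, 1.05 and 0.85 on the arrays labelled pregnant, against 2.84, 2.41, 2.39 and 2.14 on those labelled non-pregnant. Its arrays labelled pregnant were tightly grouped and lower at -1.46 (SE 0.19, adjusted p = 0.000217). PSMD6, another lid scaffold, had a like difference, -1.45 (SE 0.17, adjusted p = 9.20e-05). PSMD3, PSMD7, PSMD8 and PSMD11 had differences of -1.12 to -0.84, PSMD7 with the widest spread (SE 0.31). PSMD13, also of the lid (unplaced scaffold), read 4.80, 4.75, 4.78 and 4.81 on the arrays labelled pregnant, against 5.24, 5.14, 5.29 and 4.78 on those labelled non-pregnant. Array 4 labelled non-pregnant fell inside the narrow other group, and -0.33 (SE 0.18, adjusted p = 0.14) was not called. Its 2 other tested probes read 0.55 and 0.49, so its direction depended on the probe, and it was 0.27 with quantile normalization.

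In the base, the scaffold subunits PSMD1 and PSMD2 were lower at -0.90 (SE 0.18, adjusted p = 0.00247) and -0.66 (SE 0.16, adjusted p = 0.00731). PSMD4, a ubiquitin receptor (chr3:21068838-21068897), read 3.46, 3.54, 3.55 and 4.17 on the arrays labelled pregnant, against 4.91, 3.96, 4.28 and 3.71 on those labelled non-pregnant. Array 4 labelled pregnant was well above the other 3 and the groups overlapped, at -0.54 (SE 0.29, adjusted p = 0.144). Of the chaperones of base assembly PSMD10 and PSMD9 were called lower and PSMD5 was not called. PSMD10, also known as gankyrin (chrX:34454144-34454203), read -0.33, 0.25, -0.12 and 0.14 on the arrays labelled pregnant, against 2.31, 2.16, 1.58 and 1.54 on those labelled non-pregnant. It was lower on every array labelled pregnant, and its -1.91 (SE 0.24, adjusted p = 0.00017), 3.77-fold, was the largest difference of the PSMD genes. PSMD9 was lower at -1.15 (SE 0.24, adjusted p = 0.00307). PSMD5 (chr8:115578208-115578267) read 0.61, 0.90, 0.94 and 1.45 on the arrays labelled pregnant, against 1.11, 1.44, 1.44 and 1.52 on those labelled non-pregnant. Array 4 labelled pregnant lay among the other group's values, and -0.40 (SE 0.22, adjusted p = 0.141) was not called. Without that array PSMD5 was called lower, at -0.56 (adjusted p = 0.0325).

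The probes of PSMC5 and PSMD14 with an open reading frame, printed because these genes led the cap, are second probes of their genes.
PSMC5: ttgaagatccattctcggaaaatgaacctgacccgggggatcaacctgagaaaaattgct
PSMD14: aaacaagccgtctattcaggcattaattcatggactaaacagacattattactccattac
The PSMC5 probe (chr19:49623750-49623809, plus strand) read a difference of -1.88. The PSMD14 probe (chr2:36128165-36134523, minus strand) spans 6359 bases of genome and read -1.92. Both values are close to those of the brightest probes, -1.78 and -1.71.

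The activators open the barrel without the 19S particle, and they differed in both directions. PSME3 (chr19:44223511-44223570), the subunit of a nuclear activator, read -2.10, -1.65, -1.62 and -1.57 on the arrays labelled pregnant, against 0.42, 0.49, 0.42 and 1.24 on those labelled non-pregnant. Every array labelled pregnant was below every other array, and -2.38 (SE 0.24, adjusted p = 4.49e-05), 5.21-fold, was the largest difference of the 43 genes. Its dimmer second probe read -0.84, in the same direction, and with both averaged PSME3 was -1.61. The printed probe of PSME3 is the brightest one.
PSME3: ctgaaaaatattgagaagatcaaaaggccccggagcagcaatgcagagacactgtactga

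PSME1 and PSME2 form together the activator induced by interferon. PSME1 (chr10:21292202-21292261) read 5.30, 5.57, 5.32 and 5.37 on the arrays labelled pregnant, against 4.89, 4.71, 4.86 and 4.75 on those labelled non-pregnant. All 4 arrays labelled pregnant were above the others, and 0.58 (SE 0.16, adjusted p = 0.0122) was called higher, although it was 0.20 with median scaling and 0.10 without scaling and called in neither. PSME2 (chr10:21287115-21287173) read 5.12, 5.41, 5.35 and 4.997 on the arrays labelled pregnant, against 5.27, 4.72, 4.79 and 4.35 on those labelled non-pregnant. Array 1 labelled non-pregnant lay among the other group, and 0.44 (SE 0.23, adjusted p = 0.13) was not called. Without that array PSME2 was called higher, at 0.60 (adjusted p = 0.038). Both genes lie close together on chromosome 10. PSME4 (chr11:37928453-37928512), a large nuclear activator, read 2.19, 2.26, 2.31 and 2.49 on the arrays labelled pregnant, against 2.57, 2.03, 2.26 and 1.84 on those labelled non-pregnant. The groups overlapped and 0.14 (SE 0.20, adjusted p = 0.587) was not called. A dim probe of PSME4, above background on 1 array labelled pregnant and 4 labelled non-pregnant, was called at -1.93. It passed the filter only through the arrays labelled non-pregnant. The 2 remaining probes, at 0.13 and 0.35, were not called. Probes for related copies named PSME1-like and PSME3-like exist on the array, so signals of these genes can include copies.

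The PSMG chaperones build the alpha ring as pairs of PSMG1 with PSMG2 and of PSMG3 with PSMG4. Each pair held 1 called gene and 1 gene that was not called, where 62.7% of all tested genes were called. PSMG2 (chr24:44681229-44681288) read 2.94, 3.25, 3.29 and 3.40 on the arrays labelled pregnant, against 4.31, 4.12, 4.14 and 3.79 on those labelled non-pregnant. It was lower on all arrays labelled pregnant, at -0.87 (SE 0.19, adjusted p = 0.00386). Its partner PSMG1 (chr1:141510083-141510142) read 3.15, 2.55, 2.61 and 2.53 on the arrays labelled pregnant, against 2.42, 2.21, 3.31 and 2.41 on those labelled non-pregnant. One array of each label was high and the groups overlapped, at 0.12 (SE 0.28, adjusted p = 0.729).

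PSMG4 (chr23:51421529-51421588) read 4.58, 4.74, 4.84 and 4.24 on the arrays labelled pregnant, against 3.96, 3.62, 3.94 and 3.38 on those labelled non-pregnant. The arrays labelled pregnant were all above the rest, and 0.88 (SE 0.22, adjusted p = 0.00697) was called higher, but it was 0.49 with median scaling and 0.39 without scaling and called in neither. Its partner PSMG3 (chr25:43300912-43300971) read 3.38, 3.22, 3.31 and 3.23 on the arrays labelled pregnant, against 3.38, 2.99, 3.35 and 2.94 on those labelled non-pregnant. The groups overlapped at 0.12 (SE 0.18, adjusted p = 0.589), while a much dimmer second probe was called at 0.75. The difference between the members of a pair was not tested.

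Several probes bore on most of these genes. Of the 91 probes 86 were tested, and the 5 left out, too dim on most arrays, were further probes of PSMA1, PSMA7, PSMB3, PSMD7 and PSME4. For 29 genes with several tested probes, 37 of the 43 other probes had the sign of the brightest one and 36 its call. Among 18 genes called lower with several probes, 13 had every probe called lower. The others, PSMA2, PSMD1, PSMD3, PSMD8 and PSMG2, each had a probe that was not called. The second probe of PSMB6 is annotated on the opposite strand to the first and may not read the same transcript. It was above background on no array labelled pregnant, and its groups overlapped. It is counted in the 37 and the 36, and PSMB6 among the 13 genes. Probes that share a transcript are no replicates of the group difference.

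**Figure D4:**
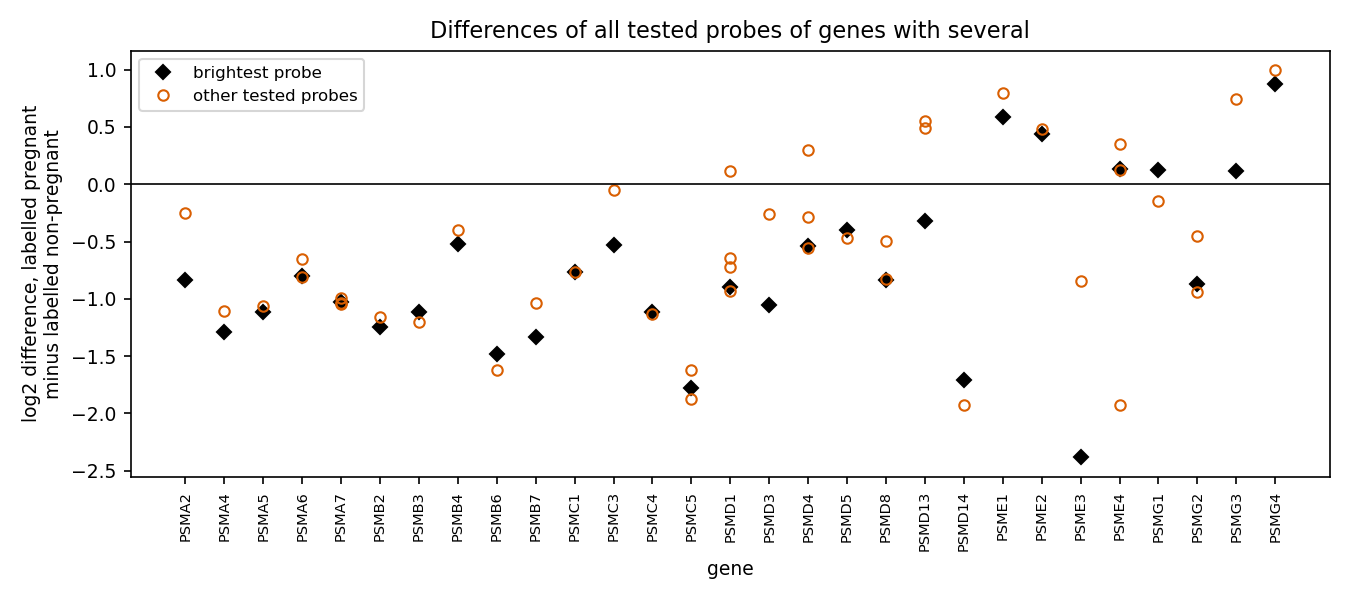
Log2 difference, labelled pregnant minus labelled non-pregnant, of every tested probe of the 29 genes with several, with diamonds for the brightest probe and circles for the others. Of 43 circles 37 lie on the same side of 0 as their diamond, and a PSME4 probe at -1.93 lies farthest from its own.

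The brightness of a probe moved with its difference across the whole array. When the 13400 tested genes were ranked by mean signal over the 8 arrays and split into 4 equal classes, 36 of the 43 genes fell in the brightest class, where the median difference was -0.43 and 44.6% of genes were called lower. The dimmest class had a median of 0.40. Quantile normalization brought the 4 class medians to between -0.02 and 0.15, and under it the 43 genes had 22 called lower, 4 called higher and a median of -0.44, against 0.03 for all genes. The part of brightness in the lower values was not tested. Scalings by a single constant per array kept the median of the 43 genes at -0.87 relative to that of all genes, and quantile normalization put it at -0.47.

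**Figure D5:**
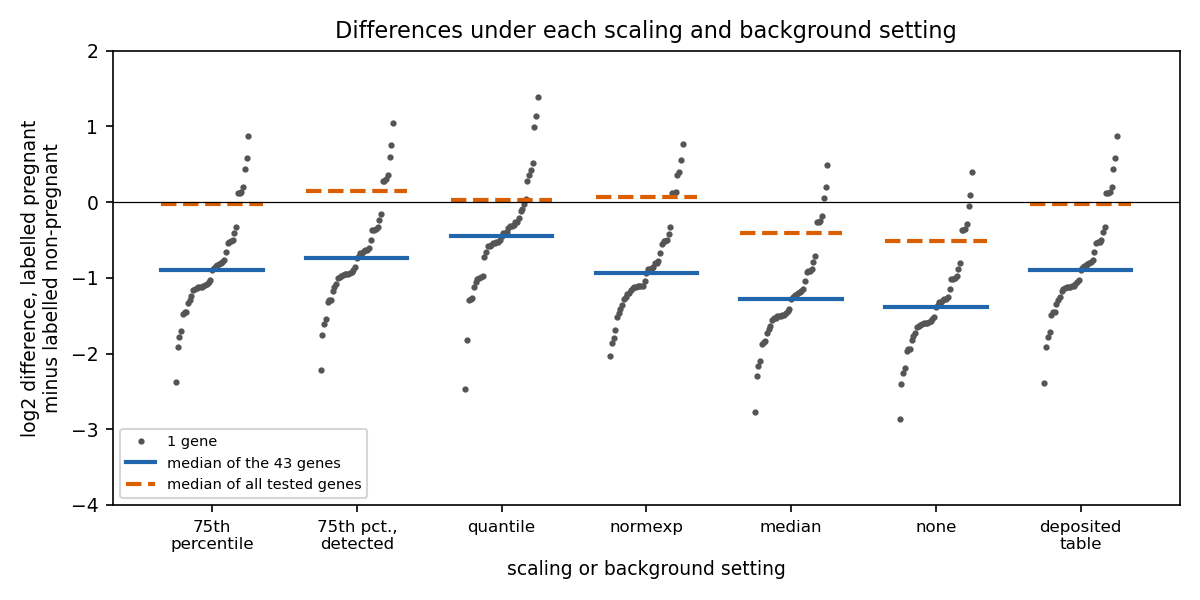
Log2 differences of the 43 genes (dots, sorted) under the main scaling and 6 other scaling or background settings, with the median of these genes (solid) and of all tested genes (dashed). The solid line is below the dashed one in every column, at -0.90 against -0.02 in the first and at -0.44 against 0.03 with quantile normalization. Columns that differ only by a constant per array show the same gap by construction.

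Other genes of the pathway were taken from a list of 32, of which ECPAS found no probe. Of the 31 tested, 16 were called lower, 4 higher and 11 not, where 32.8% of all genes were called lower and 29.9% higher. The 16 include UBQLN4 and NPLOC4, which passed the filter only through the arrays labelled non-pregnant. The 4 called higher were PSMB8, PSMB9 and PSMB10, described above, and ZFAND5, whose probes disagreed. The median of the 31 genes was -0.66, against -0.02 over all genes. The 4 genes listed as particle-bound (USP14, ADRM1, SEM1 and UCHL5) were all called lower. USP14, a deubiquitinase that trims ubiquitin at the particle, read 1.29, 1.44, 1.41 and 1.40 on the arrays labelled pregnant, against 3.15, 2.99, 3.07 and 2.72 on those labelled non-pregnant. The groups were narrow and apart, at -1.60 (SE 0.17, adjusted p = 5.33e-05). Its other probes read -0.64 (called lower) and -0.58 (not called), and with all 3 averaged USP14 was -0.94. The ubiquitin receptor ADRM1 read 3.36, 3.51, 3.62 and 3.70 on the arrays labelled pregnant, against 5.05, 4.58, 4.86 and 4.34 on those labelled non-pregnant. It was lower on all arrays labelled pregnant, at -1.16 (SE 0.21, adjusted p = 0.00118). SEM1, a small lid subunit, read 3.87, 4.03, 3.91 and 3.98 on the arrays labelled pregnant, against 5.62, 5.08, 5.12 and 4.34 on those labelled non-pregnant. Its arrays labelled pregnant were close together below the rest, at -1.09 (SE 0.26, adjusted p = 0.0064), and the deubiquitinase UCHL5 was lower at -0.69 (SE 0.16, adjusted p = 0.00528). For ADRM1, 1 of 3 other probes was also called lower.

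Among assembly and remodelling factors TXNL1, a thioredoxin-like protein bound to the cap, read 3.67, 3.82, 3.89 and 4.36 on the arrays labelled pregnant, against 5.53, 5.37, 5.40 and 5.10 on those labelled non-pregnant. Array 4 labelled pregnant was the highest of its group, still below all others, at -1.41 (SE 0.21, adjusted p = 0.000379). POMP, the chaperone of beta ring maturation, was lower at -0.84 (SE 0.22, adjusted p = 0.00841), PAAF1, which binds the ATPases, at -0.96 (SE 0.19, adjusted p = 0.00251) and the ubiquitin ligase UBE3C at -0.69 (SE 0.20, adjusted p = 0.0161). ZFAND5, a stimulator of the proteasome, read 4.06, 4.13, 4.18 and 4.17 on the arrays labelled pregnant, against 2.52, 2.71, 3.17 and 2.78 on those labelled non-pregnant. Its brightest probe was higher without overlap, at 1.34 (SE 0.19, adjusted p = 0.000283), but its 2 other probes were called lower at -1.02 and -0.84, so no direction can be given for the gene.

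The transcription factor NFE2L1 raises proteasome genes after NGLY1 removes its sugars and DDI2 cleaves it. NFE2L1 itself read 4.08, 4.10, 4.11 and 4.13 on the arrays labelled pregnant, against 4.87, 4.07, 4.09 and 3.50 on those labelled non-pregnant. The values overlapped, with those labelled pregnant almost equal, and -0.02 (SE 0.28, adjusted p = 0.946) was not called. DDI2 read -3.42, -3.19, -3.25 and -3.74 on the arrays labelled pregnant, against -0.40, -0.64, -1.20 and -0.91 on those labelled non-pregnant. It was lower throughout, at -2.62 (SE 0.23, adjusted p = 1.80e-05), although its other probe, at -0.53, was not called. DDI2 was -1.97 with normexp background correction and -1.57 with its probes averaged, and called lower in both. NGLY1 was lower at -0.93 (SE 0.18, adjusted p = 0.0018), with both other probes called lower too. NFE2L2, the oxidative stress factor, read 1.01, 2.71, 2.97 and 2.19 on the arrays labelled pregnant, against 3.33, 3.35, 3.22 and 3.16 on those labelled non-pregnant. Array 1 labelled pregnant was far below its group, and -1.04 (SE 0.39, adjusted p = 0.0443) was called lower. It was -0.64 without that array, and the call was lost without labelled pregnant array 4 or any one array labelled non-pregnant (adjusted p from 0.0677 to 0.0916). It was also lost with the percentile over probes detected on all arrays (-0.88, adjusted p = 0.0789) and with quantile normalization (-0.73, adjusted p = 0.158). The 3 other probes of NFE2L2 had positive values that were not called.

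Of the factors that deliver substrates 5 of 8 were called lower, against 32.8% of all tested genes. UBQLN4 and NPLOC4, both among the 5, passed the filter only through the arrays labelled non-pregnant. Their calls are therefore no support for a difference. VCP, the segregase that extracts ubiquitinated proteins, read 4.87, 4.98, 4.92 and 4.83 on the arrays labelled pregnant, against 6.90, 6.15, 6.27 and 5.80 on those labelled non-pregnant. The arrays labelled pregnant were close together below the others, at -1.38 (SE 0.24, adjusted p = 0.00111). UBQLN1, a shuttle protein, read -0.91, -0.75, -0.75 and -0.43 on the arrays labelled pregnant, against 2.28, 1.92, 1.42 and 2.37 on those labelled non-pregnant. It was lower without overlap, at -2.71 (SE 0.25, adjusted p = 2.17e-05). UBQLN4, another shuttle, read -7.34, -4.71, -7.76 and -7.92 on the arrays labelled pregnant, against -2.78, -3.35, -3.58 and -3.45 on those labelled non-pregnant. It was above background on 1 of the 4 arrays labelled pregnant, array 2 being the highest of them, and differed by a fitted -3.64 (SE 0.65). UBQLN4 was -1.07 with normexp background correction and -4.38 without labelled pregnant array 2, and called lower in both. The VCP cofactor NPLOC4 read -6.57, -6.12, -6.26 and -6.27 on the arrays labelled pregnant, against -5.30, -5.07, -4.85 and -3.42 on those labelled non-pregnant. It was above background on no array labelled pregnant. With those arrays raised to at least the dimmest signal above background, it was 2.97-fold lower. Leaving out 1 array gave fitted differences of -1.86 to -1.23. With normexp background correction NPLOC4 was -0.24 and not called (adjusted p = 0.367), so the fold holds only under the main background. Its partner UFD1 was lower at -0.66 (SE 0.23, adjusted p = 0.0326).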

How the data were processed

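The spot intensity values and the 0 or 1 flags deposited by the authors are scanner output made, per the file headers, with Agilent Feature Extraction 11.5.1.1 (protocol GE1_1105_Oct12, grid build HGSC Btau_3.1). The deposited log2 table correlated with log2 of the processed intensity at r = 0.999 in each array, with a 75th percentile near 0 and medians of -3.56, -3.61, -3.64 and -3.61 (labelled pregnant) and -4.21, -4.01, -4.00 and -3.77 (labelled non-pregnant). No source states its scale or centring, which were inferred from its values, and it served as an alternative.

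From the processed intensity, log2 was taken and the array's 75th percentile subtracted (798, 970, 1019 and 1347 on the arrays labelled pregnant, 1168, 1558, 1246 and 1797 on those labelled non-pregnant). The 1319 control spots and 5 to 31 outlier spots per array were left out and no spot was saturated. Spots of a probe were averaged. Tested probes were well above background on at least 4 of 8 arrays, out of 60.6% to 69.5% above it per array. The number of arrays limits the precision. The test was lmFit with eBayes from limma 3.58.1 (R 4.3.3), without covariates, with Benjamini-Hochberg adjustment over the tested probes, and the code was tested on simulated data. Ratios were tested with exact permutation tests (scipy 1.17.1). Arrays correlated at 0.943 to 0.989 among those labelled pregnant, 0.957 to 0.987 among those labelled non-pregnant and 0.736 to 0.783 between labels. Each gene is given by the tested probe that was brightest on average over all arrays.

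Of 51282 probes 36121 carried a symbol, 28112 by accession and the rest by symbol, synonym or the file's own name, with the RefSeq table of ARS-UCD2.0 used for names only. Markers TOP2A, MKI67 and HOXA11 found no probe. Some genes of the pathway list are not reported here. The members and gene lists were chosen with earlier results of these data known. Values in every array were given by rule for the 3 highest and 3 lowest differences of each subcomplex, for partners called with a difference of at least 1 in size and for PSMB8, PSMB9 and PSMB10, while NFE2L1 was added for its role after its values were seen. Alternatives were other scalings, background correction, filters, probe averaging, the deposited table, a replicate block and leaving out each array. The slide as a block could not be fitted, with 1 slide and 1 scan.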

Additional observations from a re-analysis of the deposited data

Results flagged for a closer look

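In 5 of 114 groups of 4 arrays, for the 43 genes and 14 named pathway genes, the highest or lowest array stood apart from the other 3 by the Dixon criterion, which chance meets in about 1 in 20 groups. PSMD4 was 4.17 on labelled pregnant array 4, where the other 3 lay between 3.46 and 3.55. PSME3 was -2.10 on labelled pregnant array 1 (others -1.65 to -1.57) and 1.24 on labelled non-pregnant array 4 (others 0.42 to 0.49). PSMG1 was 3.15 on labelled pregnant array 1 (others 2.53 to 2.61). PSMD6 was 2.41 on labelled pregnant array 2 (others 2.18 to 2.20).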

How the results depend on the processing

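The count of genes called lower stayed between 30 and 36 under the alternatives run, except 22 with quantile normalization. The count called higher was 0 with median scaling, 0 without scaling and 4 with quantile normalization. The median difference was -1.28 with median scaling, -0.73 with the percentile over probes detected on all arrays, -0.44 with quantile normalization and -1.38 without scaling, where the median of all genes was -0.41, 0.14, 0.03 and -0.51. Among all genes 40.7% were lower and 22.0% higher with median scaling, and 41.9% and 19.5% without scaling, against 32.8% and 29.9% in the main setting.

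Leaving out each array gave 30 to 34 genes lower, 2 or 3 higher and medians of -0.99 to -0.86, and partners stayed at 14 to 17 lower and 4 higher. Ratio changes were 5.41 to 5.77 (PSMB9), 5.43 to 5.75 (PSMB10) and 4.63 to 4.99 (PSMB8). Each gave p = 0.0571, the smallest that an exact permutation test of 3 against 4 arrays allows, again fixed by the lack of overlap.

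Signs turned for genes not called. With median scaling PSMB11 was -0.19, PSME4 -0.25, PSMG1 -0.27 and PSMG3 -0.27. Without scaling PSMB11 was -0.29, PSME2 -0.049, PSME4 -0.35, PSMG1 -0.36 and PSMG3 -0.37. With quantile normalization PSMB11 was -0.27, PSMB4 0.039 and PSMD13 0.27. With all probes averaged PSMD13 was 0.24, PSME4 -0.33, PSMG1 -0.014, ZFAND5 -0.17 and NFE2L2 0.065, the last 2 called in the main setting. Leaving out arrays gave PSMG1 -0.026 to 0.36. The cause of these changes was not tested.

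Whether the replicate numbers pair the arrays could not be settled. Correlations of deviations between same-numbered arrays were weak (0.009, 0.075, 0.050 and 0.155), but 3 of 4 numbers correlated best with their own. The replicate block gave 30 genes lower and 2 higher at a median of -0.90, and only the call of NFE2L2 (adjusted p = 0.0532) changed among the named genes.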
